A study of Mus musculus with 4 samples.

Results

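The 7 genes described here are Igf2bp1, Igf2bp2, Igf2bp3, Hmga1, Hmga2, Lin28a and Lin28b, 3 small families of oncofetal genes, meaning genes that are active in the embryo and in some tumours. They were chosen by symbol, with their values in these libraries already known, and they are 7 of 55339 genes in the table. All 7 were among the 17303 genes with a log2 value of at least 0 in at least 2 libraries, the genes called tested below. RNA was measured in leukemia cells taken from bone marrow (mice of strain C57BL/6), in 2 libraries of genotype WT (replicates 4 and 5) and 2 of genotype YBX1-/- (replicates 1 and 3, with cKO in their titles and called Ybx1 knockout here). The oncogene that drives the leukemia, the Cre line, the age of the mice and whether cells of several animals were pooled are not given in the sources used here, and nothing says that the replicates are separate animals. The titles put a number after RNA-seq, which is 2 for knockout replicate 3 and 1 for the rest.

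IGF2BP proteins bind mRNA through RRM and KH domains and are known to shield bound mRNAs, Myc among them, from decay, and they are described as readers of the m6A mark. LIN28 proteins pair a cold-shock domain, the fold that also defines YBX1, with zinc knuckles, bind precursors of the let-7 microRNAs and block their processing. Mature let-7 in turn represses mRNAs that carry its sites, and HMGA2, an AT-hook protein that bends DNA, is a textbook target. In mouse blood the LIN28B, let-7 and HMGA2 axis is known for its part in the fetal program of hematopoietic stem cells, which is largely switched off in the adult.

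The let-7 seed and its matches in the 7 mRNAs are shown first because they are the sequence feature that the 3 families share. All 9 mature let-7 and miR-98 5p sequences in RefSeq (build GRCm38.p6) carry the same seed, bases 2 to 8, given here in capitals.
let-7a-5p: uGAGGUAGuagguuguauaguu
let-7g-5p: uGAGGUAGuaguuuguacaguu
miR-98-5p: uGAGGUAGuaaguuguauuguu

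The complement of this seed, CTACCTC, was searched on the sense strand of the longest annotated 3′ UTR of each gene in GENCODE M21 (GRCm38). It was present in 7 of 7 members, against 9.01% of 20979 genes in the table with a 3′ UTR. The longer form with an A after it, CTACCTCA, which contains the shorter one, was present in 6 of 7, with Hmga1 the exception, and in 3.05% of all genes. Several members are textbook let-7 targets, so this share is no independent observation, and a match is not evidence of a working site. The sites of Hmga2 and Igf2bp1, whose values stand out below, are printed in full as the 22 bases opposite a let-7 microRNA, with the seed match in capitals.
Hmga2, 58 bases after the stop codon, chr10:120364224-120364245, minus strand: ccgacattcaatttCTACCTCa
Hmga2, 1295 bases after, chr10:120362987-120363008, minus strand: cccactcctcaataCTACCTCt
Hmga2, 1733 bases after, chr10:120362549-120362570, minus strand: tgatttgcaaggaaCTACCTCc
Hmga2, 2591 bases after, chr10:120361691-120361712, minus strand: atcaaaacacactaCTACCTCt
Igf2bp1, 1715 bases after, chr11:95961778-95961799, minus strand: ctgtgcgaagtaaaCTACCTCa
Igf2bp1, 4136 bases after, chr11:95959357-95959378, minus strand: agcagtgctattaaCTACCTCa
Igf2bp1, 4730 bases after, chr11:95958763-95958784, minus strand: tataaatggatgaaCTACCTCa
Igf2bp1, 5353 bases after, chr11:95958140-95958161, minus strand: cttttggttttaatCTACCTCt

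Igf2bp1 carried 4 matches in 6337 bases, Hmga2 4 in 3014 bases and Lin28b 4 in 4445 bases. Among genes with a 3′ UTR within 20% of the same length, at least as many matches were found in 2 of 563 for Igf2bp1, 3 of 2238 for Hmga2 and 3 of 1268 for Lin28b, counts that include the gene itself. Lin28a carried 2 matches, and Igf2bp2, Igf2bp3 and Hmga1 carried 1 each. For those last 3 genes, 12.01%, 13.3% and 8.09% of genes with a 3′ UTR of similar length hold at least 1 match. The first match of Lin28b and the single matches of Igf2bp2, Igf2bp3 and Hmga1, with the first of Lin28a, show how the bases upstream of the seed match differ from member to member.
Lin28b, 36 bases after the stop codon, chr10:45381022-45381043, minus strand: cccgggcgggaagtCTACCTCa
Lin28a, 909 bases after, chr4:134005189-134005210, minus strand: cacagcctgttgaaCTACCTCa
Igf2bp2, 1313 bases after, chr16:22059473-22059494, minus strand: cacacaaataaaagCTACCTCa
Igf2bp3, 548 bases after, chr6:49086787-49086808, minus strand: gcatttttactcaaCTACCTCa
Hmga1, 801 bases after, chr17:27563278-27563299, plus strand: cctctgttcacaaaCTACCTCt

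**Figure D1:**
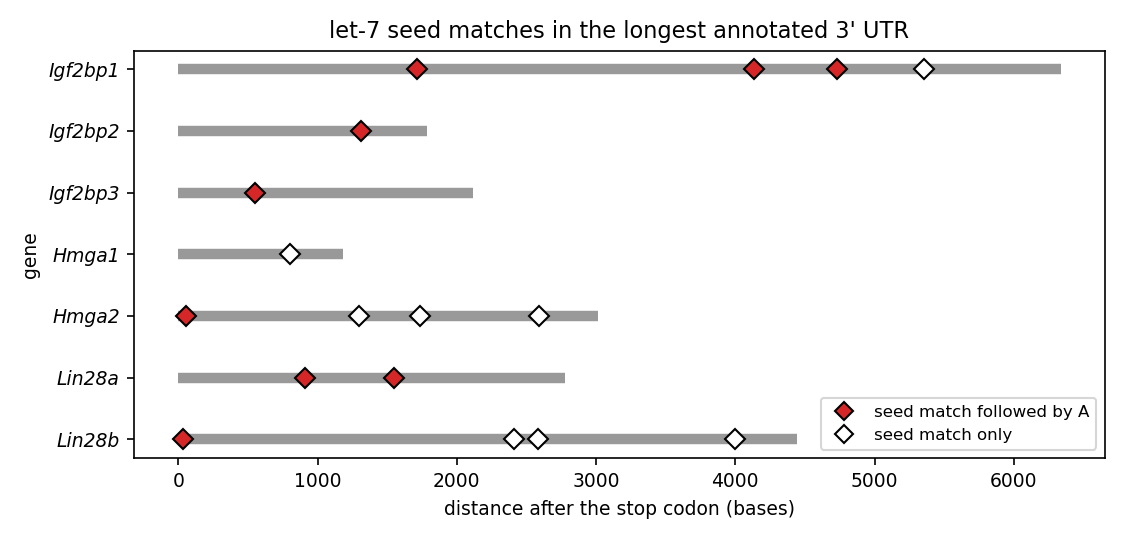
Position of each let-7 seed match (diamond) along the longest annotated 3′ UTR (grey bar) of the 7 genes, in bases after the stop codon; red diamonds are followed by an A. Hmga2 and Lin28b have a match within 58 bases of the stop codon, and Igf2bp1 has 4 matches in the longest of these 3′ UTRs.

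Ybx1, the targeted gene, was at 19.70 and 10.002 in WT replicates 4 and 5 and at 7.29 and 8.33 in knockout replicates 1 and 3, in log2 units as deposited. WT replicate 4 stands apart from the other libraries. Across the tested genes its Pearson's r with each of them was 0.69 to 0.71, against 0.93 to 0.96 among the other 3, a description over genes, which are not independent replicates. Its highest value was 25.8, against 17.3 to 18.3 in the others, and 33.2% of its tested genes lay between 4.5 and 6, against 10.4% to 10.9%. The differences of the 7 genes and the medians of the gene lists are therefore given both with the WT pair and from WT replicate 5 alone. Depth is unknown since no counts are given, and the values are not per length, so levels are compared between libraries and not between genes. All 10 myeloid markers were among the tested genes, with Elane at 15.84 to 23.52 and Spi1 at 13.13 to 20.81. Of 7 T cell markers, 4 were listed at 0 in all 4 libraries, Cd3e and Cd3g among them, and 3 were tested, Lck at 3.72 to 5.20, Trac at 2.11 to 4.09 and Cd3d at 0.54 to 2.59. The B cell marker Cd79b was at 5.16 to 7.41, and the part of other cell types in the values below was not tested. Kit, the progenitor receptor, was at 3.56 to 5.35.

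At an adjusted p under 0.05, limma called none of the 17303 genes (0% in each direction), and 651 genes (3.76%) had an unadjusted p under 0.05. The 7 genes were chosen on this very contrast, so their values are given as a description without a test. Of the 7, 2 had both knockout values below both WT values, Igf2bp1 and Hmga2, and 0 had both above. Over all tested genes these shares were 18.8% and 17.3%. Against WT replicate 5 alone, 3 lay below in both knockout libraries, 2 above and 2 on either side, where 33.4% of tested genes lay below and 41.8% above.

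**Figure D2:**
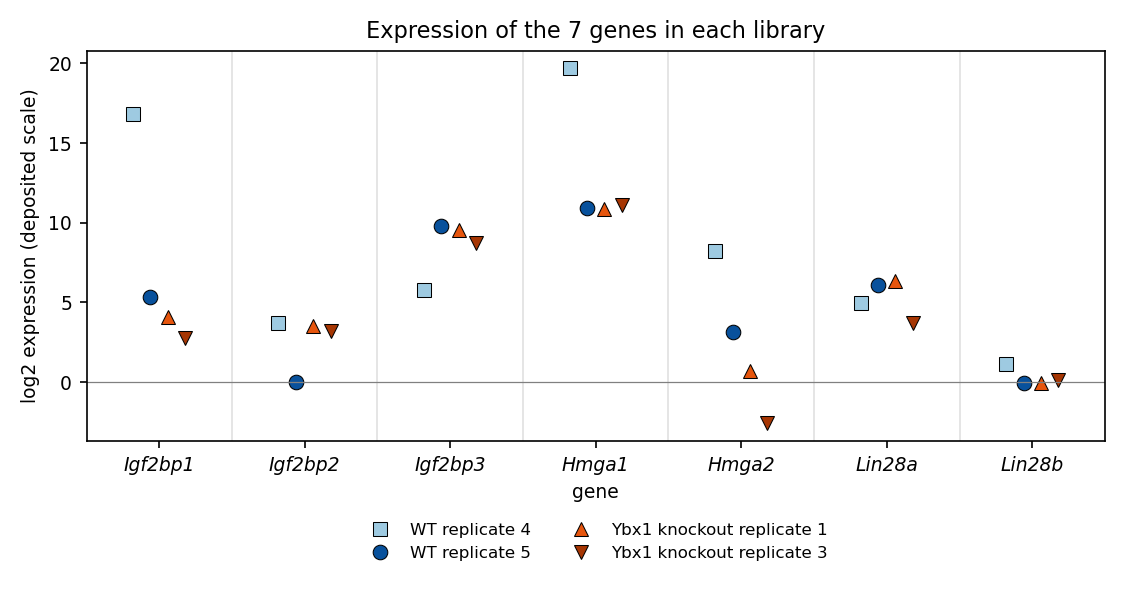
Deposited log2 expression of each gene (x axis) in the 4 libraries, 1 symbol per library. WT replicate 4 (pale square) is the highest library for 5 of the 7 genes, and Hmga2 steps down from 8.23 and 3.18 in WT to 0.70 and -2.59 in knockout.

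Hmga2 showed the widest gap below WT replicate 5 of the 7 genes. It encodes the embryonic AT-hook chromatin protein and lies on chromosome 10 (120361275 to 120476469, minus strand, GRCm38). It was at 8.23 in WT replicate 4, 3.18 in WT replicate 5, 0.70 in knockout replicate 1 and -2.59 in knockout replicate 3. Both knockout libraries lay below both WT libraries, but no 2 libraries were alike. The means were 5.70 ± 3.57 (SD, n = 2) in the WT pair and -0.95 ± 2.32 (SD, n = 2) in the knockout pair, a difference of -6.65. From WT replicate 5 alone the difference was -4.12, which is 17.4-fold lower, with -2.48 in knockout replicate 1 and -5.77 in replicate 3. The value in knockout replicate 3 lay below that of Igf2, a gene that did not pass the filter, at -1.74 to -1.67, so the size of the difference rests on values near the bottom of the scale. With a pseudocount of 1 on the linear scale it was -4.98 with both WT libraries and -2.52 from WT replicate 5, or 5.75-fold lower, the latter chosen after seeing the data.

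Within the libraries, Hmga2 held percentile 84.6 of the tested genes in WT replicate 4, 36.2 in WT replicate 5, 19.8 in knockout replicate 1 and 0.0982 in knockout replicate 3. The order of the libraries is thus the same by rank as by level. Only 0.451% of tested genes had a lower difference from WT replicate 5. The gap between the knockout replicates, 3.29, was itself wider than that of 98.1% of tested genes, whose median was 0.46. In bulk RNA, fewer cells with Hmga2 and less Hmga2 RNA per cell cannot be told apart. In the authors' deposited table Hmga2 has a log2 fold change of -8.06 with an adjusted p of 0.0107. It is the 1 member called there of the 3 members with an adjusted p under 1, where 7.64% of such genes were called lower and 0.261% higher.

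Part of Hmga2 is overlapped on the other strand by the antisense gene 1700006J14Rik, over 20180 bases of the genome that take in its first let-7 match. That gene was at 7.08 and 5.44 in WT and at 6.46 and 5.80 in knockout, so its groups overlapped. Whether reads were counted by strand is not given in the sources used here, and reads of the pair then cannot be told apart.

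Igf2bp1 was the other member with both knockout libraries below both WT libraries. It encodes the founding member of the family, known for holding Myc and Actb mRNA in ribonucleoprotein particles, and lies on chromosome 11 (95957163 to 96005940, minus strand). It was at 16.83 in WT replicate 4, 5.37 in WT replicate 5, 4.07 in knockout replicate 1 and 2.75 in knockout replicate 3. WT replicate 4 stood 11.46 above WT replicate 5, a wider step than in 99.1% of tested genes, and the other 3 libraries lay within a far smaller range. The means were 11.10 ± 8.10 (SD, n = 2) in the WT pair and 3.41 ± 0.93 (SD, n = 2) in the knockout pair. The difference of -7.69 shrank to -1.96, or 3.89-fold lower, from WT replicate 5 alone.

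By rank Igf2bp1 moved from percentile 94.4 in WT replicate 4 and 49.9 in WT replicate 5 to 41.6 and 33.9 in the knockout libraries. Of all tested genes, 4.24% had a lower difference from WT replicate 5. In the authors' deposited table its log2 fold change is -11.71 with a listed p of 1. That value of exactly 1 is listed for 1565 of the 20610 genes with a fold change (7.59%). In those genes WT replicates 4 and 5 differed by over 2 in 76.3%, against 37.9% of the genes with an adjusted p under 1. The reason for that listed value was not tested, and the listed p of Igf2bp1 is not read as a result in either direction.

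Igf2bp3 and Igf2bp2 did not follow Igf2bp1. The coding sequences of the 3 paralogs share 71.3% to 71.6% of aligned bases, with no identical run above 20 bases, so reads of the 3 can be told apart over most of their length. Igf2bp3, the paralog known for its high level in MLL-rearranged leukemia, lies on chromosome 6 (49085223 to 49214957, minus strand). It was at 5.78 in WT replicate 4, 9.80 in WT replicate 5, 9.56 in knockout replicate 1 and 8.75 in knockout replicate 3. The knockout values lay between the WT values, and WT replicate 4 was the lowest library, with its value inside the crowded range of 4.5 to 6.

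The mean of Igf2bp3 was 7.79 ± 2.85 (SD, n = 2) in the WT pair and 9.16 ± 0.57 (SD, n = 2) in the knockout pair, a difference of 1.36. From WT replicate 5 alone the sign was the opposite, at -0.65, or 1.57-fold lower, and 20.9% of tested genes had a lower one. Its percentile was 71.7 in WT replicate 4 and 91.5, 89.3 and 83.0 in WT replicate 5 and knockout replicates 1 and 3, so by rank too WT replicate 4 was the lowest. In the authors' deposited table its log2 fold change is 0.37 with an adjusted p of 0.900. The mitochondrial ribosome factor gene Malsu1 overlaps its 3′ end on the other strand by 1529 bases and was at 5.46 and 7.31 in WT and 7.73 and 8.02 in knockout.

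Igf2bp2, the paralog that stays active in some adult tissues, lies on chromosome 16 (22059009 to 22163299, minus strand). It was at 3.71 in WT replicate 4, 0.03 in WT replicate 5, 3.55 in knockout replicate 1 and 3.20 in knockout replicate 3. Here WT replicate 5 was the library that stood apart, and WT replicate 4 lay just above both knockout libraries. The difference was 1.505 with both WT libraries, with means of 1.87 ± 2.60 (SD, n = 2) in the WT pair and 3.38 ± 0.24 (SD, n = 2) in the knockout pair. It was 3.34 from WT replicate 5, or 10.2-fold higher, and 1.57% of tested genes had a higher one. Against WT replicate 4 alone it was -0.33. The fold from WT replicate 5 rests on the low value of 0.03 in that library. With a pseudocount of 1 on the linear scale, the difference of Igf2bp2 was 1.09 with both WT libraries. From WT replicate 5 it was then 2.49, a setting chosen after seeing the data. In the authors' deposited table its log2 fold change is 0.08 with a p of 0.983. The rank gave percentile 30.4 in WT replicate 4, 8.47 in WT replicate 5, and 38.5 and 36.8 in the knockout libraries.

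**Figure D3:**
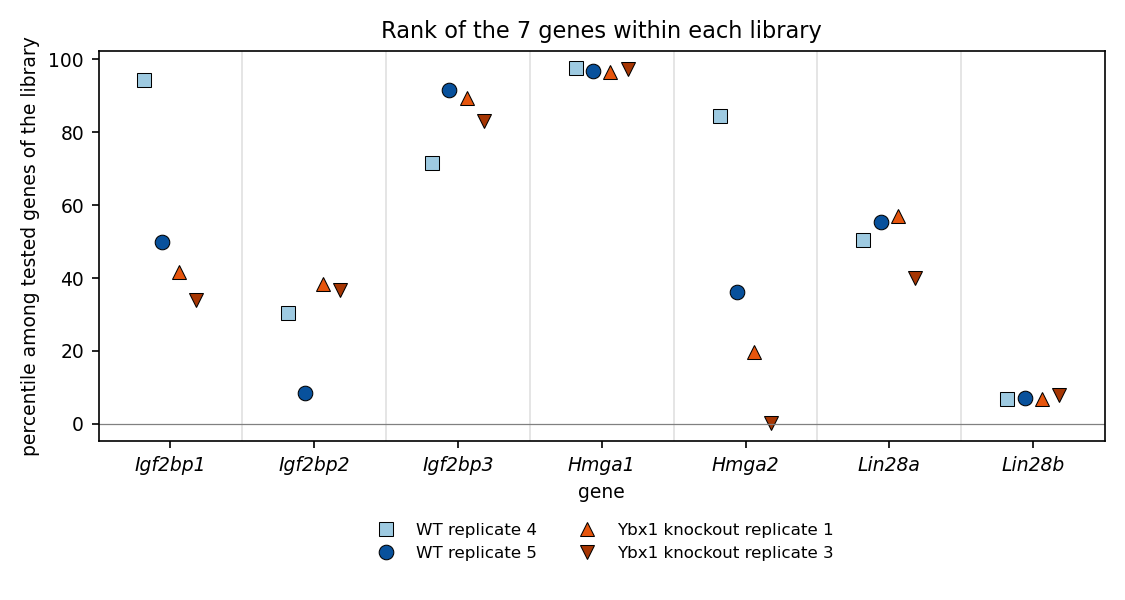
Percentile of each gene among the 17303 tested genes of the same library, which takes out the wider scale of WT replicate 4. Hmga1 stays between 96.7 and 97.5 in all 4 libraries, while Igf2bp1 and Hmga2 step down from WT to knockout.

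Hmga1 and Hmga2 gave different pictures. Hmga1, the family member that remains active in dividing adult cells, lies on chromosome 17 (27556497 to 27563674, plus strand). It was at 19.69 in WT replicate 4, 10.91 in WT replicate 5, 10.85 in knockout replicate 1 and 11.14 in knockout replicate 3. WT replicate 5 lay between the knockout libraries, and WT replicate 4 far above all 3. The difference of -4.30, from 15.30 ± 6.21 (SD, n = 2) in the WT pair and 10.99 ± 0.21 (SD, n = 2) in the knockout pair, became 0.08 from WT replicate 5 alone.

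The rank of Hmga1 barely moved, at percentile 97.5, 96.8, 96.7 and 97.5 in the 4 libraries in the same order. Its position in WT replicate 4 was thus like that in the other libraries although its level was 439-fold above WT replicate 5. In the authors' deposited table it has a log2 fold change of -7.29 with a listed p of 1. Its 3′ end overlaps AI413582 on the other strand by 102 bases, a gene at 19.03 in WT replicate 4 and 8.68 to 9.75 in the others.

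Hmga1b, a copy of Hmga1 on chromosome 11 (120762794 to 120764419, plus strand), has a coding sequence of 321 bases that matched the shorter Hmga1 form at 321 of 321. How shared reads were assigned is not given in the sources used here, so both rows are uncertain. Hmga1b was at 13.20 in WT replicate 4, 3.76 in WT replicate 5, 4.30 in knockout replicate 1 and 4.36 in knockout replicate 3. It repeats the high value in WT replicate 4, and in the authors' deposited table it has a log2 fold change of -7.82 with an adjusted p of 2.38e-04. The difference was -4.15 with both WT libraries and 0.57 from WT replicate 5 alone.

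Lin28a encodes the first-described let-7 blocking protein and lies on chromosome 4 (134003330 to 134018841, minus strand). It was at 4.99 in WT replicate 4, 6.09 in WT replicate 5, 6.32 in knockout replicate 1 and 3.70 in knockout replicate 3. The knockout libraries lay on both sides of the WT pair. The means were 5.54 ± 0.78 (SD, n = 2) in the WT pair and 5.01 ± 1.85 (SD, n = 2) in the knockout pair, a difference of -0.53 that is smaller than the knockout SD. The knockout replicates differed by 2.62, more than in 96.6% of tested genes, and their differences from WT replicate 5 were 0.23 and -2.39. For Lin28a the authors' deposited table lists -0.09 as the log2 fold change, with an adjusted p of 0.990.

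Lin28b, the paralog known from fetal liver blood stem cells, lies on chromosome 10 (45376620 to 45486395, minus strand). It was at 1.16 in WT replicate 4, -0.04 in WT replicate 5, -0.04 in knockout replicate 1 and 0.14 in knockout replicate 3. It held a percentile of 6.80 to 7.92 in all 4 libraries, so it ranked near the bottom of the tested genes in each. Its values lay close to the filter of log2 0. Without counts, whether Lin28b RNA was detected cannot be told, and the even rank is not read as steady expression. WT replicate 5 and knockout replicate 1 differed by 4.20e-04 and knockout replicate 3 lay 0.18 above WT replicate 5, so the count of Lin28b as above WT replicate 5 rests on a negligible step. The authors' deposited table gives a log2 fold change of -5.35 with a p of 0.179, far from the difference of -0.51 between the means of 0.56 ± 0.85 (SD, n = 2) in the WT pair and 0.05 ± 0.13 (SD, n = 2) in the knockout pair. Lin28a and Lin28b share 73.4% of 590 aligned coding bases.

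**Figure D4:**
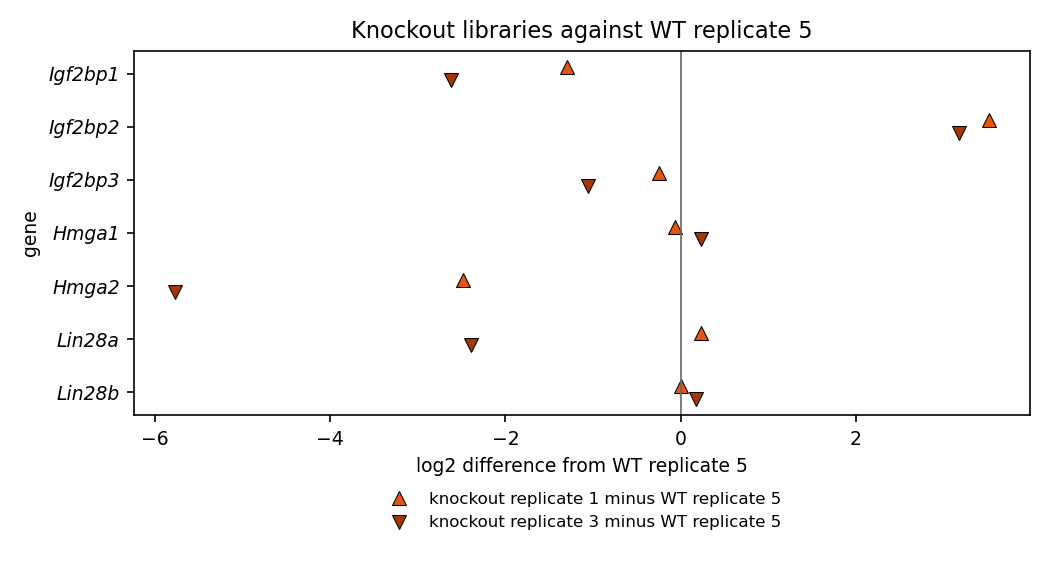
Log2 difference of each knockout library from WT replicate 5 for the 7 genes, with 0 as a line. Hmga2 (-2.48 and -5.77) and Igf2bp1 (-1.30 and -2.62) lie left of the line in both libraries, Igf2bp2 (3.52 and 3.17) lies right, and Hmga1 and Lin28b lie close to it.

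The knockout replicates were also set against each other. Knockout replicate 3 was lower than knockout replicate 1 for 5 of them, by 3.29 for Hmga2, 2.62 for Lin28a, 1.32 for Igf2bp1, 0.81 for Igf2bp3 and 0.35 for Igf2bp2. It was higher by 0.29 for Hmga1 and 0.18 for Lin28b. Over all tested genes replicate 3 was the lower one in 53.7%. The replicates also carry different numbers after RNA-seq in their titles, and the part of that difference was not tested.

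Other genes with the same course over the 4 libraries were sought by the root mean square difference of the values after each gene was centred on its own mean. Igf2bp1 was nearest to Exoc8, an exocyst subunit gene (0.23), and Hbegf, an EGF family ligand gene (0.26). These were at 19.72 and 17.98 in WT replicate 4 and at 7.82 and 6.05 in WT replicate 5. Hmga2 had no close neighbour, with Trpm1 at 0.96 and Uchl4 at 1.03, and 0 of 12825 genes lay within 0.5. For Igf2bp2 the nearest were Plcb4 (0.06) and Fam117a (0.09), and for Lin28a Carm1 (0.21) and Ptger4 (0.23). Igf2bp3 was followed by Smarca4 (0.09) and Pcif1 (0.10), the gene of the cap m6A methyltransferase, and Hmga1 by Rpl28 (0.05) and Clcn7 (0.08). Lin28b resembled Plekha5 (0.02) and Rimklb (0.02), with 2004 genes within 0.5, and no likeness over 4 libraries is read as shared control.

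The let-7 pathway around LIN28 is described next. Since limma called 0 of all 17303 tested genes, 0 calls in any list below were given in advance. The adjusted p of 0.826 that recurs below is the lowest limma gave to any tested gene, so it does not show that a gene is unchanged. The 12 let-7 precursor genes were listed at 0 in every library of this poly-A RNA, so mature let-7 was not measured. Of 21 tested genes of let-7 processing and turnover, limma called 0 in either direction, and the median difference was 0.27 with both WT libraries and -0.12 from WT replicate 5, against -0.09 and 0.07 over all tested genes. Compared with both WT libraries, 2 lay below and 2 above, beside 18.8% and 17.3% of all tested genes. Dis3l2, the exonuclease that degrades let-7 precursors marked after LIN28 binding, was at 5.30 and 5.73 in WT and at 7.33 and 6.60 in knockout. Its limma difference was 1.45 (SE 0.69) with an adjusted p of 0.826, and it lay 1.24 above WT replicate 5. The terminal uridylyltransferases Tut4 and Tut7, which add the mark and were named after their values were seen, had overlapping groups. Tut4 was at 4.02 and 2.33 in the WT pair and 3.44 and 2.16 in the knockout pair, and Tut7 at 7.64 and 9.85 in the WT pair and 9.33 and 8.93 in the knockout pair. Khsrp, which promotes let-7 maturation, was at 15.52 and 6.98 in the WT pair and 7.29 and 6.61 in the knockout pair, with a limma adjusted p of 0.826. The authors' deposited table called 0 of the 16 genes of this list with an adjusted p under 1. Over all such genes 7.64% were called lower and 0.261% higher.

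Other known let-7 target mRNAs lay below WT replicate 5 more often than not. Of 22 tested, 15 had both knockout values below it and 3 above, beside 33.4% and 41.8% of all tested genes, and the median difference was -0.71 against 0.07. With both WT libraries, 7 lay below both and 1 above, beside 18.8% and 17.3%, and the median was -0.64 against -0.09. Limma called 0 of the 22. Nr6a1, an orphan nuclear receptor gene and the gene with the most seed matches in the table (8), was at 2.98 and 2.57 in WT and 1.69 and 0.90 in knockout, a limma difference of -1.48 (SE 0.70, adjusted p = 0.826) and -1.28 from WT replicate 5. Plagl2, a zinc finger gene, was at 17.18 and 8.80 in the WT pair and 8.73 and 8.29 in the knockout pair, with a limma adjusted p of 0.826 as well.

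The authors' deposited table called 5 of the 17 let-7 targets with an adjusted p under 1 lower and 0 higher, namely Nras, Myc, Arid3a, Cdk6 and Insr, named after their values were seen. The adjusted p listed there for Myc, 0.0118, is the 1 value off a Benjamini-Hochberg adjustment of the listed p-values by over 0.5%, and that adjustment gives 0.0945. Arid3a, a fetal B-lineage regulator, was at 8.54 and 10.85 in the WT pair and 9.58 and 8.72 in the knockout pair, so its groups overlapped. Nras was at 20.90 and 13.10 in the WT pair. WT replicate 4 was also the higher WT library for Cdk6, but not for Myc, Arid3a and Insr. From WT replicate 5 the differences were -0.51 for Nras, -1.08 for Myc, -1.70 for Arid3a, -1.25 for Cdk6 and -1.68 for Insr. Of the 24 mRNAs in this list, 14 hold the 7-base match in their longest 3′ UTR.

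mRNAs and proteins that work with the IGF2BP family also held 0 calls by limma, as did all 17303 tested genes. Of 16 tested mRNAs known to be bound by IGF2BP proteins, 8 lay below WT replicate 5 and 4 above in both knockout libraries, with a median of -0.27. Against the WT pair 4 lay below and 2 above, with a median difference of -0.32. Over all tested genes 33.4% lay below and 41.8% above WT replicate 5, and 18.8% and 17.3% below and above the WT pair. Myc was at 10.91 and 11.06 in WT and 9.71 and 10.24 in knockout. Srf, a serum response factor gene, was at 18.92 and 3.31 in the WT pair and 3.04 and 4.27 in the knockout pair, and Tk1, the S phase thymidine kinase gene, at 5.39 and 7.92 in the WT pair and 8.61 and 7.65 in the knockout pair. Limma gave both an adjusted p of 0.826. The classic partner mRNA Igf2 was not above -1.67 in any library and H19 was listed at 0, both named after their values were seen. Of all genes with an adjusted p under 1 in the authors' deposited table, 7.64% were called lower and 0.261% higher. Of the 13 bound mRNAs with such a value, 4 were called lower and 0 higher. Among these were Myc, with the odd listed value given above, Actb and Cdk6, named after their values were seen. Each of these lay below both WT libraries in the knockout pair. Actb was at 25.84 and 18.29 in the WT pair and 17.25 and 17.63 in the knockout pair. Cdk6 was at 21.29 and 15.44 in the WT pair and 14.69 and 13.68 in the knockout pair. WT replicate 4 was thus far above WT replicate 5 for Actb and Cdk6, but not for Myc. From WT replicate 5 the differences were -1.08 for Myc, -0.85 for Actb and -1.25 for Cdk6.

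Of 18 tested protein partners in mRNPs, the knockout values of 3 were below and of 7 above WT replicate 5, and the median difference was 0.22. With both WT libraries 2 lay below and 3 above and the median was -0.67. WT replicate 4 lay a median of 0.69 above WT replicate 5 in this list. Over all tested genes 33.4% lay below and 41.8% above WT replicate 5, and 18.8% and 17.3% below and above both WT libraries. Matr3, a nuclear matrix RNA-binding protein gene, was at 5.53 and 8.05 in the WT pair and 8.65 and 8.19 in the knockout pair. Fmr1, the gene of the fragile X protein, was at 9.89 and 7.20 in the WT pair and 6.86 and 6.56 in the knockout pair. Limma called 0 of the 18, with an adjusted p of 0.826 for both. The authors' deposited table called 4 of 15 partners with an adjusted p under 1 lower and 0 higher, among them Hnrnpu, Caprin1 and Hnrnpab, named after their values were seen. WT replicate 4 was the highest library for each of these 3, and from WT replicate 5 their differences were 1.31, 0.47 and 0.63 in the same order.

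The IGF axis, which the IGF2BP family is named for, had few genes that passed the filter. Of 15 genes, 6 were tested, mainly receptors and their adaptor rather than ligands, and limma called 0. From WT replicate 5 alone, both knockout libraries had lower values for 5 of the 6 genes and higher values for 0, with a median of -1.53. With both WT libraries 2 lay below, Igf2r and Irs2, and 0 above, with a median of -0.46. Over all tested genes 33.4% lay below and 41.8% above WT replicate 5, and 18.8% and 17.3% below and above both WT libraries. Igf2r, the receptor that clears IGF2, was at 7.15 and 7.31 in WT and at 6.13 and 5.37 in knockout, a limma difference of -1.48 (SE 0.67, adjusted p = 0.826) and -1.56 from WT replicate 5. Both of its knockout values lay below both WT values, which were close to each other. Irs2, an adaptor of the insulin and IGF1 receptors, was at 4.88 and 5.86 in WT and 4.57 and 3.73 in knockout, with a limma adjusted p of 0.826. Insr, the insulin receptor gene, was the 1 of 5 called lower in the authors' deposited table, with 0 higher, and was named after its values were seen. Over all genes with an adjusted p under 1 there, 7.64% were called lower and 0.261% higher. Insr and Irs2 are in the let-7 target list too, as is Igf1r, so these lists are not independent.

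Among other HMG proteins, 3 of 12 tested had both knockout values under WT replicate 5 and 4 had them over it, the median being 0.07, and limma called 0. Set against both WT libraries, 2 lay below and 2 above, with a median of 0.64. Over all tested genes 33.4% lay below and 41.8% above WT replicate 5, and 18.8% and 17.3% below and above both WT libraries. The authors' deposited table called 1 of 10 lower, Hmgn2, named after its values were seen, and 0 higher. Over all genes with an adjusted p under 1 there, 7.64% were called lower and 0.261% higher. Hmgn2 was at 20.73 and 14.84 in the WT pair, and its difference from WT replicate 5 was -0.25. Hmgn3, a nucleosome-binding protein gene, was at 3.05 and 0.02 in the WT pair and 3.06 and 3.44 in the knockout pair, so that WT replicate 5 again stood apart as it did for Igf2bp2. Hmgxb4 was at 5.12 and 6.03 in the WT pair and 6.90 and 6.29 in the knockout pair, and limma gave both an adjusted p of 0.826. Of 5 tested genes among other oncofetal and fetal blood genes, 1 had both knockout values under WT replicate 5 and 2 had them over it, the median being 0.46, and limma called 0. With both WT libraries the median had the opposite sign, at -0.66. Here 0 genes lay below or above both, beside the same 18.8% and 17.3% of all tested genes. The authors' deposited table called 1 of 2 lower, Arid3a, and 0 higher, beside the same 7.64% and 0.261% of all such genes. Afp, the fetal serum protein gene, was at 4.20 and 2.58 in the WT pair and 2.33 and 3.12 in the knockout pair (limma adjusted p = 0.859). Peg10, an imprinted retrotransposon-derived gene, was at 2.84 and 0.21 in the WT pair and 0.72 and 0.62 in the knockout pair (limma adjusted p = 0.835).

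**Figure D5:**
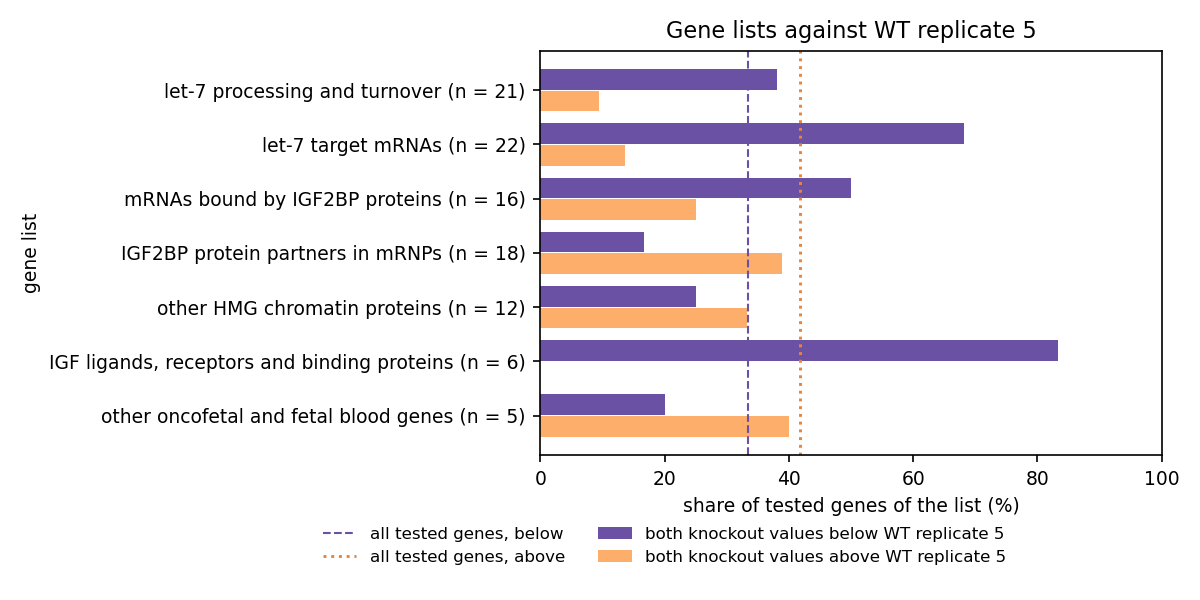
Share of the tested genes of each list with both knockout values below (purple) or above (orange) WT replicate 5, in percent, with dashed and dotted lines for all tested genes (33.4% and 41.8%). The let-7 target list (15 of 22) and the IGF list (5 of 6) have the largest shares below among the 7 lists drawn.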

How the data were processed

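Poly-A RNA-seq gave 4 libraries, 2 per genotype. Per the submitters' processing notes, the build was GRCm38 and the tools DESeq2, featureCounts, HISAT2 2.1.0 and CASAVA, without roles. The authors deposited log2 expression values per gene, with a normalization not given in the sources used here, and their own log2 fold change and p-values. Their fold change, headed WT against cKO, is read as knockout over WT, since its Pearson's r with knockout minus WT was 0.71 over 20610 genes. Here, limma 3.58.1 (R 4.3.3, mean-variance trend) was run on the values as deposited, for genes of at least 0 in 2 libraries, with Benjamini-Hochberg adjustment over 17303 genes. It was also run on simulated data in which all libraries had the same spread. That run cannot show how limma behaves with a library that stands apart, as WT replicate 4 does. P-values measure only the spread between these libraries, which may be technical. Coordinates and 3′ UTRs are from GENCODE M21 (GRCm38). The members and the 8 gene lists (in the lists, Tut4 and Tut7 also stand under older symbols) were chosen with earlier results of these data known. Named genes are the members, Ybx1, 2 genes of lowest limma p per list and 2 nearest neighbours per member, with no predicted gene models, plus those marked as named after their values were seen and those that mark cell types or overlap a member. Alternatives left out each library, added pseudocounts of 0.1, 0.5 and 1, centred or quantile normalized the values, changed the filter (none, or log2 5), or dropped the trend. Some called genes of the lists are not reported here by name.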

Additional observations from a re-analysis of the deposited data

How the results depend on the processing

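No paired analysis was possible because the groups share no replicate number. Limma called 0 genes under each alternative that kept all 4 libraries, and 0 to 4960 when 1 library was left out: 0 without WT replicate 4, 4960 without WT replicate 5, 26 without knockout replicate 1 and 88 without knockout replicate 3. Leaving out 1 library gave 0 to 6 called genes of let-7 processing, 0 to 6 let-7 targets, 0 to 5 bound mRNAs, 0 to 11 protein partners, 0 to 5 other HMG genes, 0 of the IGF list and 0 to 1 other oncofetal genes, with each highest count coming without WT replicate 5. The count of tested genes with knockout below WT was 3248, against 4356 to 8772 with 1 library left out and 850 under the filter of log2 5. The count above was 3000, against 4112 to 7239 with 1 library left out and 2818 under the filter of log2 5. That filter kept 9144 genes rather than 17303, so these shares depend on the filter. Fewer libraries make it easier not to overlap by construction. Of 63 recomputed member differences, 56 kept their sign and 7 changed it: Igf2bp2 (-0.33) and Lin28a (0.02) without WT replicate 5, Igf2bp3 (-0.65), Hmga1 (0.084) and Lin28b (0.0897) without WT replicate 4, Lin28a (0.78) without knockout replicate 3 and Lin28b (0.0212) after quantile normalization. Quantile normalization also took Hmga1 from -4.30 to -0.038 and Igf2bp1 from -7.69 to -4.97. The cause was not tested. With each library left out, Igf2bp1 (-13.42 to -1.96) and Hmga2 (-9.18 to -4.12) kept their sign, and the ranges were -0.33 to 3.34 for Igf2bp2, -0.65 to 3.38 for Igf2bp3, -8.69 to 0.084 for Hmga1, -1.84 to 0.78 for Lin28a and -1.11 to 0.0897 for Lin28b. The median difference of all tested genes, -0.09, was -0.23 after centring and 0.16 after quantile normalization. Depth is unknown, so the precision of low genes such as Lin28b cannot be given.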

Other observations

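Across the tested genes other than the 7 members, the difference of the knockout mean from WT replicate 5 was set beside the number of let-7 seed matches in the longest 3′ UTR. The median difference was 0.09 in 11401 genes with 0 matches, -0.01 in 1126 genes with 1, -0.05 in 164 genes with 2 or more and -0.20 in the 23 of those with 3 or more. In the same order, the middle 50% of genes lay from -0.43 to 0.55, -0.57 to 0.48, -0.67 to 0.32 and -0.89 to 0.26. These ranges overlapped widely, and the medians differed by less than the spread within each group. The 3′ UTRs lengthened along with the number of matches, from a median of 991 bases to 2112, 3623 and 4453, and the part of length in these values was not tested. With both WT libraries the medians were 0.27, 0.18, 0.28 and -0.44, so the first 3 groups had no order there.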
